A study of Mus musculus with 40 samples.

Results

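The 7 homeobox genes Six3, Six6, Rax, Hesx1, Otx1, Otx2 and Lhx2, which encode transcription factors of the forebrain and of the eye field, were followed in aggregates of mouse embryonic stem cells from day 3 to day 7. They were found by symbol in the deposited count matrix, 7 of its 26906 genes. The cells were CGR8, a mouse embryonic stem cell line of strain 129, grown as aggregates in N2B27, a serum-free medium, with Activin-A, Fgf2 and KSR added in every group. The untreated arm received no inhibitor, and the other arm received XAV939 from 0 to 72 h. XAV939 inhibits tankyrase, which stabilises Axin and lowers Wnt/β-catenin signalling. Each arm was sampled at days 3, 4, 5, 6 and 7 with 4 libraries a group, 40 libraries in 10 groups, to ask how the inhibitor changes the development of the aggregates. Libraries carry the replicate number of the labels. Nothing in the labels tells separate cultures from repeat libraries, so p-values here cover the spread among the libraries of a group, which may be technical. The untreated labels state that no matrigel was used and the XAV939 labels do not mention it, so that XAV939 and any difference in matrigel cannot be told apart. All libraries come from 1 cell line and from whole aggregates, so that fewer expressing cells and less RNA per cell cannot be told apart.

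As background, the anterior end of the vertebrate neural plate forms forebrain where Wnt signalling is kept low, and part of it becomes the eye field. Otx2 is expressed throughout the epiblast and then becomes restricted to the anterior neuroectoderm, while its paralogue Otx1 acts in the forebrain and midbrain. Six3 and Hesx1 are repressors of the anterior neural plate that work with Groucho/TLE corepressors, and Six3 represses Wnt genes. Rax, Six6 and Lhx2 belong to the set of factors that specifies the eye field and the optic vesicle, and Six6 also acts in the pituitary and hypothalamus.

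The genes were placed on mm10 with GENCODE release M21. Otx2 spans chromosome 14, 48657677 to 48673819, on the minus strand, and Hesx1 the same chromosome, 26994416 to 27002329, on the plus strand. Six3 lies on chromosome 17 at 85613608 to 85629302 (plus), Six6 on chromosome 12 at 72939892 to 72944899 (plus), Lhx2 on chromosome 2 at 38339281 to 38369733 (plus) and Otx1 on chromosome 11 at 21994764 to 22002897 (minus). Start sites of Six3, Six6, Hesx1, Otx2 and Lhx2 were matched by symbol in RefSeq (GRCm38.p6, the same coordinates as mm10), 9 start sites in all. The 250 bases upstream of 1 start site each of Hesx1 and Otx2 are shown. These 2 genes were chosen because in the XAV939 arm their mean levels fell from day 4 to day 5 and rose from day 5 to day 6. The means of Six3, Rax and Lhx2 moved the same way, but edgeR did not call both steps for any of them. It called both for Hesx1 and Otx2. The rise of Otx2 was not called without day 6 XAV939 library 1. Both windows lie inside the GENCODE span of their gene and hold 0 exonic bases. They read 5′ to 3′ on the strand of the gene, with the letters of a motif match in capitals.
Hesx1, chr14:27000112-27000361, plus strand: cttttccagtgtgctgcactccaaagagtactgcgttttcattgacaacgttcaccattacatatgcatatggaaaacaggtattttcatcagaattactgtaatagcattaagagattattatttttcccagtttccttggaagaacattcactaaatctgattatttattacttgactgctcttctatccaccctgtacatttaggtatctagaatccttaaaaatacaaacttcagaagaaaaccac
Otx2, chr14:48667645-48667894, minus strand: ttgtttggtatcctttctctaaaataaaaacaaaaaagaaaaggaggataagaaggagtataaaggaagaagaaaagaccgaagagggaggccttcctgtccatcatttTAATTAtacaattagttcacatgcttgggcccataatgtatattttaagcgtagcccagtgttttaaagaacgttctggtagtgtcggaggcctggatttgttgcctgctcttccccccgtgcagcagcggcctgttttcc
The motifs searched on both strands were the OTX motif TAATCC, the homeodomain core TAATTA, which is its own reverse complement and shares TAAT with the first, and the TCF/LEF motif CTTTGAA or CTTTGAT. The Otx2 window holds 1 TAATTA and the Hesx1 window holds none of these letters. Of 32851 RefSeq promoter windows of this length, 4.84% hold TAATTA, 6.25% TAATCC and 7.48% a TCF/LEF match, and a match is a description of the letters only.

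Each library held 30197759 to 44086019 counts (median 35737152). Levels are CPM, counts set relative to the library total after TMM scaling, and a level compared between genes is divided by exon length as well (RPKM). Markers of the epiblast, the tissue the aggregates are labelled to resemble, summed to between 3255 and 3974 CPM at day 3 and to between 85.9 and 159 CPM at day 7, with none of its 8 genes at 0. Pan-neural markers summed to between 314 and 341 CPM at day 3 and to between 495 and 1134 CPM at day 7. Day 4 untreated library 1 stood apart, with 1165 CPM of primitive streak and nascent mesoderm markers against 97.1 to 164 CPM in the other 3 libraries of its group. Results were also computed without it and without day 6 untreated library 3, whose surface ectoderm and placode markers summed to 1093 CPM against 382 to 649 CPM in the others.

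Otx2 was by far the most abundant of the 7 genes and the others were scarce. Averaged over all 40 libraries the level per length was 24 RPKM for Otx2 and 3.21 RPKM for Hesx1. It was 0.248 RPKM for Otx1, 0.205 for Six3, 0.172 for Lhx2, 0.067 for Rax and 0.0217 for Six6. All 7 genes passed the filter on low counts, but Six6 reached 10 counts in only 4 libraries, all at day 5, with 20 counts at most and 123 counts in all, and so passed through that day alone. Rax reached 10 counts in 14 libraries, Six3 in 31, Lhx2 and Otx1 in 34 each, Hesx1 in 36 and Otx2 in 40. Counting error thus limits Six6 the most and Otx2 the least.

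In both arms the mean level of Otx2 was highest at day 3 and that of Six6 at day 5, Six3 and Lhx2 rose from day 3 to day 4, and Rax was highest at day 6 or 7. Hesx1 had its highest mean at day 6 in the untreated arm and at day 4 in the XAV939 arm, there through 1 library. Between neighbouring days of the untreated arm, 2 of the 7 genes were called higher from day 3 to 4 (edgeR adjusted p below 0.05, against 17.6% of all 16878 genes tested called higher and 15.1% lower). From day 4 to 5 in that arm 1 was called higher, Six6, and 1 lower (all genes 10.5% and 8.17%). Six6 entered the test only through its high counts at day 5, so its calls to and from that day were built into the filter and carry no weight here. From day 5 to 6 2 were called higher (11.1%), and from day 6 to 7 none (12.2% of all genes in either direction; at an unadjusted p below 0.05, 1 of the 7 and 27.9% of all genes). In the XAV939 arm 3 were called higher from day 3 to 4 (20.3%), and from day 4 to 5 1 higher, Six6 again (15.9%), and 2 lower (15.2%). From day 5 to 6 there were 3 higher (9.27%) and 1 lower, Six6 (7.68%), and from day 6 to 7 none (7.16% in either direction; at an unadjusted p below 0.05, 1 of the 7 and 19.1% of all genes). DESeq2 also called none of the 7 genes from day 6 to 7, against 2391 genes in the untreated and 1425 in the XAV939 arm. The counts describe these 7 genes only.

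**Figure D1:**
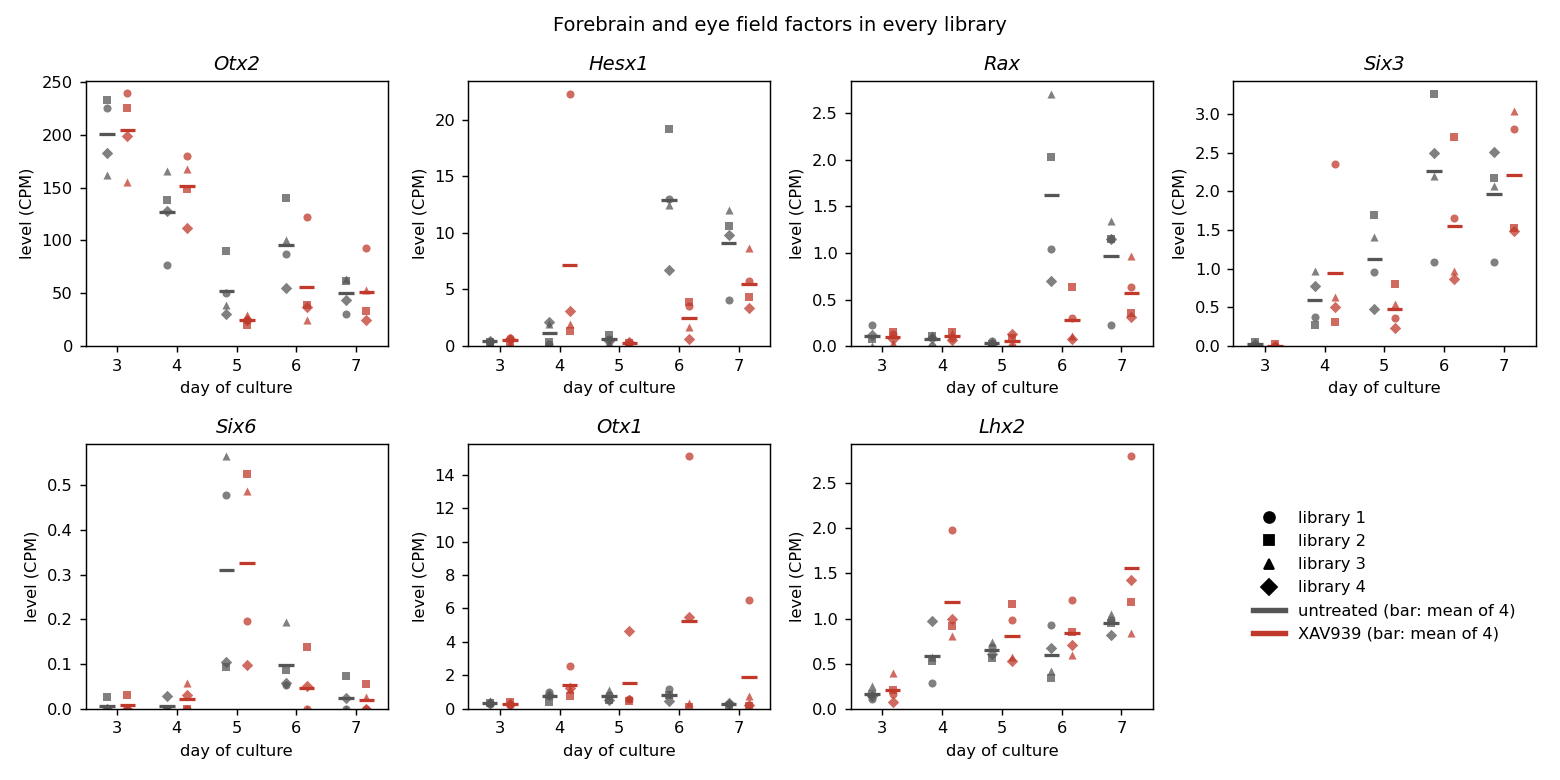
Level of each gene in every library (CPM, linear axes from 0) against day of culture, with grey for untreated and red for XAV939 aggregates, marker shapes for library numbers 1 to 4 and bars for means of 4. Otx2 falls from means of 201 and 205 CPM at day 3, the means of Hesx1 and Rax are highest in the untreated group of day 6, and single XAV939 libraries stand above their groups for Hesx1 at day 4 (22.3 CPM) and Otx1 at day 6 (15.1 CPM).

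Otx2 fell between day 4 and day 5 in both arms. At day 3 it stood at 225, 233, 162 and 183 CPM in untreated libraries 1 to 4 and at 240, 225, 155 and 199 CPM in XAV939 libraries 1 to 4. The arms overlapped completely at that day, with means of 201 ± 34 and 205 ± 36.9 CPM (SD, n = 4 each). At day 4 the untreated libraries held 76.5, 138, 166 and 128 CPM and the XAV939 libraries 180, 149, 168 and 112 CPM. Again the arms overlapped, and the lowest value belonged to untreated library 1, the one with high streak markers.

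At day 5 Otx2 was at 50.3, 89.6, 39.3 and 30.1 CPM in the untreated libraries and at 25, 20.1, 29.4 and 24.8 CPM in the XAV939 libraries. Every XAV939 library lay below every untreated one. From day 4 to 5 the untreated level fell by 1.28 on the log2 scale (SE 0.384, edgeR adjusted p = 0.0163, lower in 4 of 4 same-number libraries), and the XAV939 level fell by 2.61 (SE 0.402, edgeR adjusted p = 8.09e-06, 4 of 4). The untreated call was lost without day 4 library 3 (adjusted p = 0.0636), without day 5 library 3 (0.063) and without day 5 library 4 (0.0649). Between the arms at day 5 the log2 fold change of XAV939 over untreated was -1.08 (SE 0.385), and this did not pass the test (edgeR adjusted p = 0.156). Otx2 was the only one of the 7 genes whose arms did not overlap at that day, against 7.46% of all genes.

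At day 6 Otx2 stood at 87.1, 140, 100 and 55 CPM in the untreated and at 122, 39.2, 25 and 36.9 CPM in the XAV939 libraries. XAV939 library 1 was high, while the other 3 lay below every untreated library. In the XAV939 arm Otx2 rose from day 5 to 6 by 1.17 (log2, SE 0.386, edgeR adjusted p = 0.0318), but without day 6 XAV939 library 1 the change was 0.44 (adjusted p = 0.5). That call was also lost without any 1 of the 4 day 5 XAV939 libraries (adjusted p from 0.0523 to 0.083). In the untreated arm the change was 0.87 (SE 0.381) with an edgeR adjusted p of 0.107. The difference between the arms at day 6 was -0.78 (log2, SE 0.38, edgeR adjusted p = 0.314), and without XAV939 library 1 it was -1.51 (edgeR adjusted p = 0.0221). At day 7 the values were 30.8, 61.3, 63.9 and 43.9 CPM in untreated and 93.3, 32.8, 53.1 and 24.7 CPM in XAV939 libraries, and the arms overlapped with means of 50 ± 15.6 and 51 ± 30.6 CPM (SD, n = 4 each).

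Hesx1, a paired-like homeobox repressor needed for forebrain, eye and pituitary development, was low at day 3 and day 5 and high at days 6 and 7. At day 3 it lay between 0.339 and 0.488 CPM in the untreated and between 0.274 and 0.719 CPM in the XAV939 libraries. At day 4 it stood at 0.144, 0.362, 1.94 and 2.11 CPM in untreated and at 22.3, 1.31, 1.99 and 3.14 CPM in XAV939 libraries 1 to 4. XAV939 library 1 held more Hesx1 than any other library of the series, and each XAV939 library exceeded the untreated library of its number although the groups overlapped. The difference between the arms at day 4 was 2.66 (log2, SE 0.68) and did not pass the test (edgeR adjusted p = 0.17). Without XAV939 library 1 it was 0.92 (SE 0.573).

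Within the XAV939 arm Hesx1 rose from day 3 to 4 by 3.81 (log2, SE 0.737, edgeR adjusted p = 0.000106, higher in 4 of 4 same-number libraries). Without day 4 XAV939 library 1 the rise was 2.06 and still passed (adjusted p = 0.00924). In the untreated arm the change was 1.41 (SE 0.742, edgeR adjusted p = 0.146), with libraries 3 and 4 above and libraries 1 and 2 below their day 3 levels. At day 5 Hesx1 was at 0.657, 1.01, 0.339 and 0.421 CPM in untreated and at 0.14, 0.304, 0.115 and 0.362 CPM in XAV939 libraries. In the XAV939 arm it fell from day 4 to 5 by 4.96 (log2, SE 0.806, edgeR adjusted p = 1.65e-05, 4 of 4 lower), or by 3.22 without day 4 XAV939 library 1 (adjusted p = 0.000412). All XAV939 libraries were thus lower at day 5 than at day 4, as they were for Otx2, and the untreated change was -0.89 (SE 0.714, edgeR adjusted p = 0.44).

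The rise of Hesx1 from day 5 to day 6 was steep in both arms. At day 6 the untreated libraries stood at 13, 19.2, 12.5 and 6.68 CPM and the XAV939 libraries at 3.55, 3.88, 1.73 and 0.599 CPM. The arms did not overlap. The untreated level rose by 4.38 (log2, SE 0.735, edgeR adjusted p = 3.71e-05) and the XAV939 level by 3.40 (SE 0.793, edgeR adjusted p = 0.00227), each in 4 of 4 same-number libraries. At day 7 the untreated libraries were at 4.04, 10.6, 12 and 9.83 CPM and the XAV939 libraries at 5.71, 4.37, 8.65 and 3.36 CPM, and the groups overlapped.

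Rax, a homeobox gene required for eye formation, was near the limit of counting until day 5 and then appeared. From day 3 to day 5 its levels ran from 0 to 0.226 CPM, which is at most 8 counts a library. At day 6 the untreated libraries stood at 1.04, 2.03, 2.71 and 0.703 CPM and the XAV939 libraries at 0.302, 0.633, 0.108 and 0.0781 CPM. No XAV939 library reached the lowest untreated one, though the gap was narrow, between 0.633 and 0.703 CPM. In the untreated arm Rax rose from day 5 to 6 by 5.44 (log2, SE 0.812, edgeR adjusted p = 6.68e-06, 4 of 4 higher), from 5 to 218 counts over the 4 libraries. In the XAV939 arm the change was 2.36 (SE 0.855) with an edgeR adjusted p of 0.0526, and of 0.0493 with the replicate number as a block, and DESeq2 called it (2.46, adjusted p = 0.026). It was 1.61 without day 6 library 2 (edgeR adjusted p = 0.291) and 3.16 without day 5 library 4 (0.0322), and it also passed without day 6 library 3 or 4. At day 7 Rax was at 0.223, 1.15, 1.34 and 1.15 CPM in untreated and at 0.638, 0.355, 0.972 and 0.308 CPM in XAV939 libraries, and the groups overlapped.

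**Figure D2:**
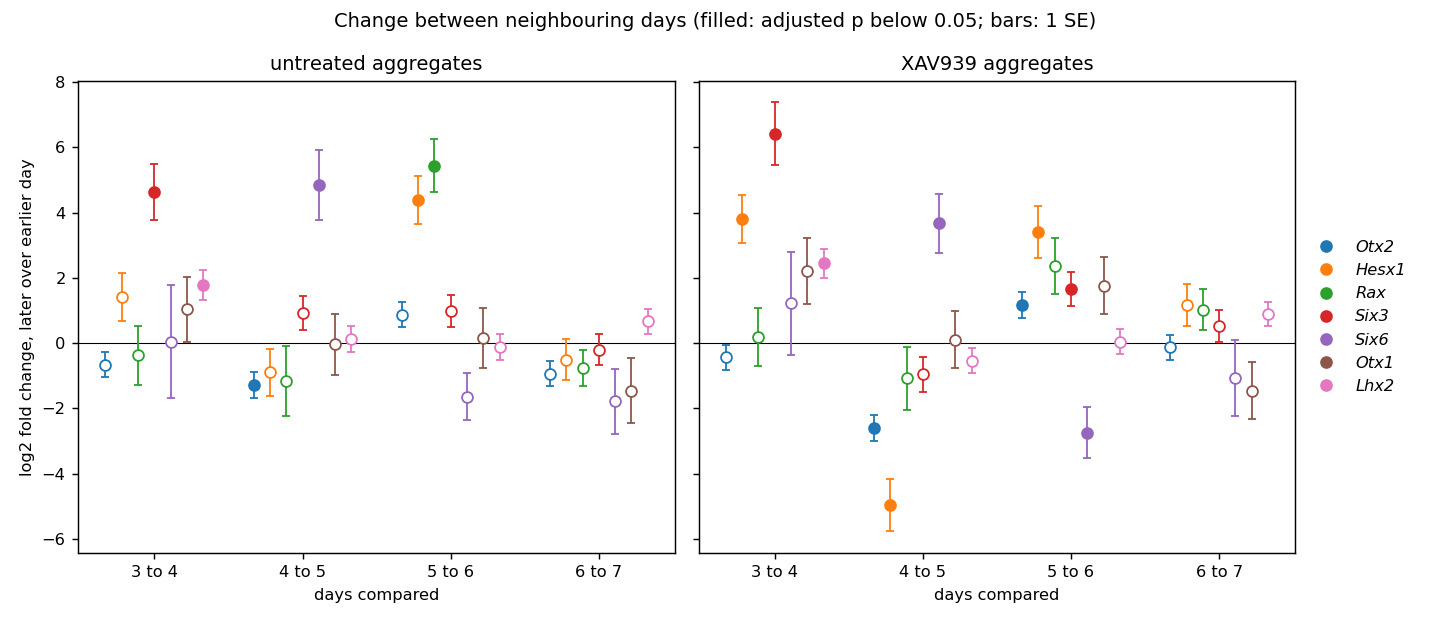
Log2 fold change of each gene between neighbouring days in the untreated (left) and XAV939 (right) aggregates, with bars of 1 SE and filled points at an edgeR adjusted p below 0.05. Rax (5.44) and Hesx1 (4.38) rise at the step from day 5 to 6 in the untreated arm, Hesx1 falls (-4.96) and rises again (3.40) in the XAV939 arm, and no point is filled at the step from day 6 to 7. The filled points of Six6 belong to a gene that entered the test through day 5 alone.

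Six3, which represses Wnt genes in the anterior neural plate and acts in lens and retina, appeared between day 3 and day 4 in both arms. At day 3 the 4 untreated libraries held 3 counts together and the 4 XAV939 libraries 1. At day 4 Six3 stood at 0.374, 0.278, 0.968 and 0.77 CPM in untreated and at 2.35, 0.305, 0.634 and 0.502 CPM in XAV939 libraries. All day 4 libraries lay above all day 3 libraries in both arms, where 33.5% (untreated) and 33.9% (XAV939) of all genes had days that did not overlap, and XAV939 library 1 was the highest. The summed untreated counts rose from 3 to 82, a ratio of 28.8 with a 95% exact counting interval of 9.52 to 143 (edgeR adjusted p = 5.82e-05). The summed XAV939 counts rose from 1 to 126, a ratio of 124 with an interval of 21.9 to 4954 (edgeR adjusted p = 2.3e-06). These intervals cover counting error only. The fitted log2 change in the untreated arm was 4.64, and 5.56 without day 3 library 2, which held 2 of the 3 counts. In the XAV939 arm it was 6.42, or 8.07 without day 3 library 2 and 5.45 without day 4 library 1.

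Six3 went on to between 1.09 and 3.26 CPM in the untreated libraries of day 6 and between 0.86 and 2.7 CPM in the XAV939 libraries. At day 5 it had stood at 0.956, 1.69, 1.41 and 0.474 CPM in untreated and at 0.365, 0.801, 0.544 and 0.23 CPM in XAV939 libraries, lower in the XAV939 library of each of the 4 numbers while the groups overlapped. That difference was -1.21 (log2, SE 0.53, edgeR adjusted p = 0.302). It passed only in a fit of the 8 libraries of that day with the replicate block (-1.24, edgeR adjusted p = 0.0454). In the XAV939 arm Six3 rose from day 5 to 6 by 1.66 (SE 0.527, edgeR adjusted p = 0.0259, 4 of 4 higher). This call was lost without day 5 library 1, 3 or 4 and without day 6 library 1 or 2 of that arm, with adjusted p from 0.0546 to 0.14. At day 7 the 2 arms averaged 1.96 ± 0.609 and 2.21 ± 0.824 CPM (SD, n = 4 each) and overlapped.

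Lhx2, a LIM homeobox factor needed for eye and forebrain growth, rose from day 3 to day 4. It stood at 0.113, 0.162, 0.256 and 0.144 CPM at day 3 and at 0.288, 0.529, 0.575 and 0.97 CPM at day 4 in the untreated libraries. The XAV939 libraries held 0.16, 0.211, 0.396 and 0.0732 CPM at day 3 and 1.98, 0.915, 0.807 and 1 CPM at day 4. In each arm the days did not overlap. The rise was 1.78 (log2, SE 0.453, edgeR adjusted p = 0.00246) without and 2.45 (SE 0.436, edgeR adjusted p = 3.33e-05) with XAV939. From then on no step between neighbouring days was called, and the group means lay between 0.59 and 1.56 CPM, highest in the XAV939 libraries of day 7. XAV939 over untreated was positive at all 5 days, from 0.32 to 0.99 on the log2 scale, though -0.17 at day 3 without XAV939 library 3, and passed the test at none of them (lowest edgeR adjusted p = 0.597).

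Six6, a relative of Six3 that acts in the retina and pituitary, was seen mainly at day 5. At that day it stood at 0.478, 0.0942, 0.565 and 0.105 CPM in untreated and at 0.196, 0.525, 0.487 and 0.0987 CPM in XAV939 libraries, which are 3 to 20 counts. In both arms 2 libraries were high and 2 low, and library 3 was high in both. Over the 4 libraries the counts rose from 1 at day 4 to 44 at day 5 in untreated aggregates, a ratio of 40.9 (95% exact counting interval 6.97 to 1652). In XAV939 aggregates they rose from 3 to 46, a ratio of 14.8 (4.77 to 74.5). The fitted log2 changes were 4.85 and 3.68, or 6.46 without day 4 untreated library 4 and 4.60 without day 4 XAV939 library 3. At day 6 the XAV939 libraries held 7 counts together, a log2 fold change from day 5 of -2.74 (SE 0.779, 4 of 4 lower), or -2.33 without day 6 library 1 and -4.0 without day 6 library 2. In the untreated arm the change was -1.64 (SE 0.713). These values are descriptions, with no p, because the counts of day 5 decided that Six6 was tested.

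Six6 and Six3 share exons with genes on the opposite strand, and since the strand setting of the counting is not given, reads of the partners cannot be told apart from theirs. 4930447C04Rik, which overlaps Six6, ran from 1.99 to 52.9 CPM, and Six6 was at most 12.5% of it. Its mean went from 30.7 CPM at day 4 to 13.4 CPM at day 5 in untreated and from 29 to 12.4 CPM in XAV939 aggregates, while Six6 rose. Six3os1, which overlaps Six3, ran from 0 to 6.5 CPM and was above Six3 in 28 of the 40 libraries. Like Six3 it was at 0 to 0.0532 CPM at day 3, at 1.67 to 5.11 CPM at day 6 and at 1.79 to 6.5 CPM at day 7. Otx2os1 was at most 1.63% of Otx2, and Raxos1 reached 0.2 CPM.

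Otx1, the Otx2 paralogue, was low in all untreated libraries and high in some XAV939 libraries. Its untreated levels ran from 0.171 to 1.17 CPM over the 5 days. In the XAV939 libraries 1 to 4 it stood at 2.53, 0.793, 1.18 and 1.22 CPM at day 4, and at 0.561, 0.442, 0.63 and 4.64 CPM at day 5. At day 6 the same arm held 15.1, 0.0826, 0.324 and 5.47 CPM, a 182-fold range within 1 group, and at day 7 it held 6.52, 0.137, 0.793 and 0.224 CPM. At each of days 5 to 7 1 or 2 libraries were high, and the others lay within or below the untreated range of the 5 days.

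No difference of Otx1 between the arms passed the test. The log2 fold change of XAV939 over untreated was 1.06 (SE 0.913, edgeR adjusted p = 0.751) at day 5, 2.65 (SE 0.915, edgeR adjusted p = 0.098) at day 6 and 2.65 (SE 0.984, edgeR adjusted p = 0.326) at day 7. At day 6 it was 1.24 without XAV939 library 1, and it passed without library 2 (3.06, adjusted p = 0.0335) or without library 3 (3.05, 0.0407). At day 7 it was 0.36 without library 1, and at day 5 it was -0.44 without library 4.

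At days 5 to 7 the XAV939 libraries with high Otx1 also held the highest En1. Other genes of the boundary between midbrain and hindbrain followed this only in part. En1, a homeobox gene of that boundary, stood at 10.4 CPM in XAV939 library 4 of day 5 and at up to 5.16 CPM in the other 3. At day 6 it stood at 26.1 and 15.5 CPM in libraries 1 and 4 and at up to 0.486 CPM in the other 2. At day 7 it was at 16.6 CPM in library 1 and at up to 1.25 CPM in the rest. The same 2 libraries of day 6 held 64.6 and 34.6 CPM of En2 (others up to 3.16 CPM) and 14.7 and 3.2 CPM of Wnt1, the secreted signal of the boundary (others up to 0.413 CPM). They also held 177 and 93.9 CPM of Pax5 (others up to 23.3 CPM). Pax2 stood at 2.29, 1.1, 2 and 2.94 CPM in libraries 1 to 4 of day 6. At day 5 library 4 was highest for Wnt1 (2.7 CPM, others up to 1.04 CPM). It was only slightly so for En2 (15.5, 12.1, 10.2 and 19.5 CPM) and Pax5 (90.6, 70.9, 55 and 104 CPM). It was lowest for Fgf8 (27.8, 18.3, 18.9 and 9.91 CPM) and Gbx2 (62.5, 44.5, 77.8 and 37.5 CPM). At day 4 En1 was highest in XAV939 library 4, at 9.95 CPM, where Otx1 was at 1.22 CPM. That was close to the 1.18 CPM of Otx1 in library 3, which held 0.634 CPM of En1. Whether Otx1 and these genes came from the same cells was not tested.

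**Figure D3:**
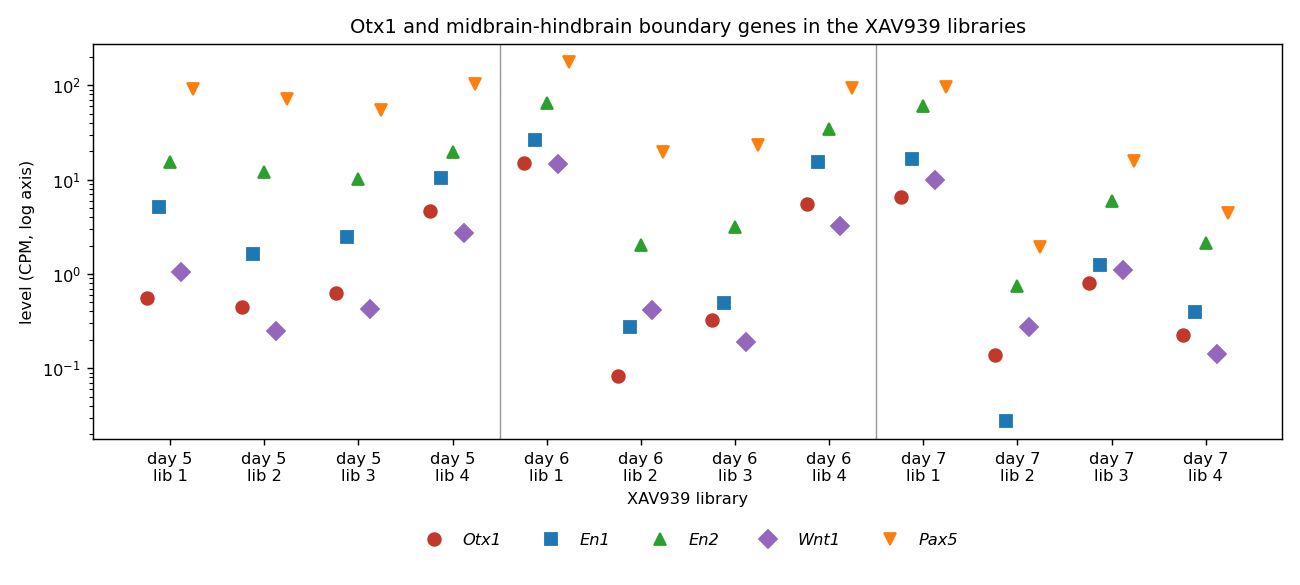
Level (CPM, log axis) of Otx1, En1, En2, Wnt1 and Pax5 in each XAV939 library of days 5, 6 and 7 (lib 1 to lib 4). Otx1 and En1 are highest in the same libraries, library 4 at day 5, libraries 1 and 4 at day 6 and library 1 at day 7.

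Between the arms, 2 of the 7 genes differed past the test, and both did so at day 6, where Rax and Hesx1 were lower with XAV939. At that day 2.95% of all genes were called lower and 1.39% higher, and 5.92% of all genes had arms that did not overlap, against the same 2 of 7 here, Rax and Hesx1. At days 3, 4, 5 and 7 no member was called by edgeR, while 0.00592%, 0.0178%, 2.34% and 0.00592% of all genes were. At an unadjusted p below 0.05 the 7 genes numbered 0, 2, 2, 4 and 1 at days 3 to 7, against 1.83%, 5.59%, 12.5%, 15.7% and 7.86% of all genes. DESeq2 called 1 member at day 4 (Hesx1, adjusted p = 0.0445), none at days 3, 5 and 7 and the same 2 at day 6, while it called 1, 55, 614, 967 and 101 of all genes at days 3 to 7. The median log2 fold change of the 7 genes was 0.03 at day 3, 0.91 at day 4 with all 7 positive (Six3 was at -0.31 without XAV939 library 1), 0.11 at day 5, -0.78 at day 6 and 0.03 at day 7, where the median of all genes lay between -0.02 and 0.01.

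**Figure D4:**
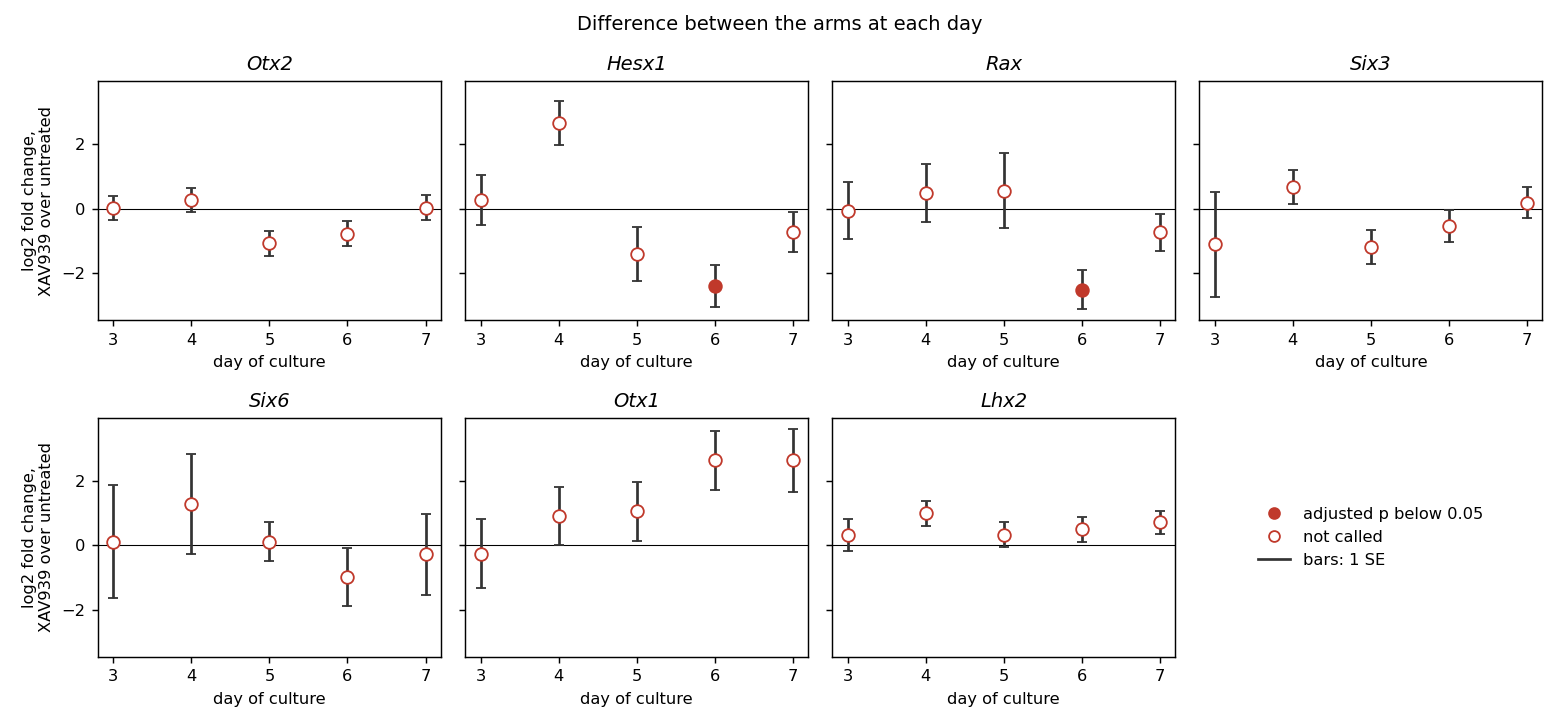
Log2 fold change of XAV939 over untreated at each day for each gene, with bars of 1 SE and filled points at an edgeR adjusted p below 0.05. Filled points are those of Hesx1 (-2.40) and Rax (-2.52) at day 6, Hesx1 is at 2.66 at day 4, and Otx1 is at 2.65 at days 6 and 7 with long bars.

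Rax was 5.73-fold lower with XAV939 at day 6, with means of 0.28 ± 0.255 against 1.62 ± 0.92 CPM (SD, n = 4 each). The log2 fold change was -2.52 (SE 0.614, edgeR adjusted p = 0.0118), lower in 4 of 4 same-number pairs. The call was lost without untreated library 3 (-2.14, adjusted p = 0.0603) and without XAV939 library 4 (-2.21, 0.071), and the difference was -3.27 without XAV939 library 2. In a fit of the 8 libraries of day 6 alone it was lost as well, without (adjusted p = 0.159) and with the replicate block (0.0667). Of all genes, the fit without the block called 0 and the fit with it 319.

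Hesx1 was 5.26-fold lower with XAV939 at day 6, at 2.44 ± 1.55 against 12.9 ± 5.11 CPM (SD, n = 4 each). The log2 fold change was -2.40 (SE 0.654, edgeR adjusted p = 0.0265), lower in 4 of 4 pairs. The call was lost without untreated library 2 (adjusted p = 0.0856) or 3 (0.0525) and without XAV939 library 1 (0.0538), 3 (0.0668) or 4 (0.128), although the change stayed between -2.71 and -2.07. It was also lost in a fit of the 8 libraries of day 6 alone (adjusted p = 0.113), which called 0 of all genes, and with no filter on low counts (0.0561). The fit of those 8 libraries with the replicate block called Hesx1. In all 40 libraries the block within each day called both Hesx1 and Rax. With both of the untreated libraries named above left out, library 1 of day 4 and library 3 of day 6, Hesx1 was at -2.41 (edgeR adjusted p = 0.0315) and Rax at -2.16 (0.0408).

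At day 7 the differences were -0.74 (SE 0.578) for Rax and -0.72 (SE 0.621) for Hesx1, with overlapping groups. A change of the XAV939 effect between neighbouring days passed the test for none of the 7 genes, and none of the 16878 genes passed in edgeR for any pair of neighbouring days. For the 4 steps in order, 1, 3, 1 and 1 of the 7 genes and 491, 844, 685 and 362 of all genes had an unadjusted p below 0.05, and DESeq2 called 0, 1, 0 and 0 of the 7 and 0, 34, 8 and 0 of all genes. Rax was among those with such a p for the steps from day 5 to 6 (-3.08, SE 1.38) and from day 6 to 7 (1.78, SE 0.838). For Hesx1 the effect moved from day 4 to day 5 by -4.07 (SE 1.07, edgeR adjusted p = 0.232, DESeq2 adjusted p = 0.0377), or by -2.33 without day 4 XAV939 library 1. Between days 4 and 6, a pair of days chosen after the values were seen, Hesx1 was the 1 gene of the 7 whose effect changed past the edgeR test, against 0.373% of all genes, and this call was lost without day 4 XAV939 library 1 (adjusted p = 0.0642) or day 6 XAV939 library 4 (0.0505).

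Markers of other cell types also differed at day 6, the day at which Rax and Hesx1 differed, and their part in those 2 differences was not tested. Primitive streak and nascent mesoderm markers summed to between 174 and 362 CPM in untreated and to between 76 and 145 CPM in XAV939 libraries, with 1 of 8 called lower. Endoderm and gut markers summed to between 150 and 347 against 89.3 to 139 CPM, with 4 of 9 lower. Surface ectoderm and placode markers summed to between 382 and 1093 against 213 to 330 CPM, with 3 of 10 lower, and epiblast markers to between 269 and 540 against 166 to 250 CPM, with 2 of 8 lower. These sums did not overlap between the arms, and no marker of the lists was at 0 in a whole group. At day 3 the endoderm list had summed to between 317 and 354 CPM in untreated and between 328 and 393 CPM in XAV939 libraries. The surface list had summed to between 600 and 691 and between 648 and 705 CPM. These sums alone thus do not tell how many cells of a type were present.

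Neural markers moved the other way at day 6. Pan-neural markers summed to between 390 and 680 CPM in untreated and to between 710 and 1036 CPM in XAV939 libraries, with 2 of 8 called higher, and neuron markers to between 41.5 and 65 against 68.5 to 318 CPM, with 4 of 8 higher. Neural crest markers overlapped between the arms (57.5 to 148 against 58.1 to 180 CPM, 1 of 8 higher), as did trunk markers of the Hox 5 to 9 groups (240 to 419 against 122 to 370 CPM, none of 13 called and 3 at an unadjusted p below 0.05). At day 5 10 of the 13 trunk markers, 4 of the 9 endoderm, 3 of the 10 surface and 1 of the 8 streak markers were called lower. At day 4 2 streak markers, T and Mixl1, were called lower, and with the untreated libraries that stood apart left out (library 1 of day 4, library 3 of day 6) edgeR called 0 of all genes at day 4. At day 3 no marker was called and none had an unadjusted p below 0.05, and at day 7 none was called, although 6 of the 8 neuron and 5 of the 10 surface markers had such a p.

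Among 17 other transcription factors of the forebrain and eye field that were tested, the median log2 fold change at day 6 was -0.11, against -0.01 over all genes. Lhx9, a LIM homeobox relative of Lhx2, was lower with XAV939 at that day, at 0.377 ± 0.255 against 2.59 ± 2.34 CPM (SD, n = 4 each). Its log2 fold change was -2.76 (SE 0.577, edgeR adjusted p = 0.00382).

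Genes of the midbrain and of the boundary behind it were higher with XAV939 where they were called. Of 15 midbrain, isthmus and caudal limit genes, none was called lower, 1 was called higher at day 5 (Irx2, 1.60, edgeR adjusted p = 0.0228) and 3 at day 6, with medians of 0.81 and 0.62. En2 was at 3.86 (SE 0.906, edgeR adjusted p = 0.00893), En1 at 5.18 (SE 1.35, edgeR adjusted p = 0.0191) and Pax5 at 3.01 (SE 0.79, edgeR adjusted p = 0.02) at day 6, with the highest values in the libraries of high Otx1. XAV939 libraries 2 and 3 held 0.275 and 0.486 CPM of En1, within the untreated 0.143 to 0.614 CPM. For En2 they held 2.01 and 3.16 CPM against 0.773 to 2.55 CPM untreated. The arms thus overlapped for En1 and En2. For Pax5 they did not, with at least 19.6 CPM against at most 18.8 CPM untreated. Of 12 anterior signalling centre genes none was called higher, while 2 were lower at day 5 and 1 at day 6, with medians of -1.15 and -0.81. Hhex, a homeobox gene of the anterior visceral and definitive endoderm, was lower at day 5 (-1.55, SE 0.39, edgeR adjusted p = 0.0256) and at day 6, at 5.85 ± 2.29 against 31 ± 13 CPM (SD, n = 4 each; -2.41, SE 0.396, edgeR adjusted p = 0.00044). Nog, which encodes the BMP antagonist noggin, was lower at day 5 (-2.12, SE 0.544, edgeR adjusted p = 0.03). None of the 14 cofactors and upstream partners, among them the Groucho/TLE genes, was called at any day. Few of all genes were called either. The shares were 0.00592%, 0.0178%, 2.34% and 0.00592% at days 3, 4, 5 and 7, and 1.39% higher and 2.95% lower at day 6. At an unadjusted p below 0.05 the cofactors and partners numbered 2 at day 4, 1 each at days 5 and 6 and 0 at days 3 and 7. Of all genes, 1.83%, 5.59%, 12.5%, 15.7% and 7.86% had such a p at days 3 to 7. The median log2 fold change of the 14 lay between -0.04 and 0.13.

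Ordered by mean level over the 10 groups, Otx2 ran from 205 CPM (day 3 XAV939) down to 24.8 CPM (day 5 XAV939), and the one pair of neighbours in this order that did not overlap was day 7 untreated above day 5 XAV939. Hesx1 ran from 12.9 CPM (day 6 untreated) through 9.12 (day 7 untreated), 7.19 (day 4 XAV939), 5.52 (day 7 XAV939) and 2.44 CPM (day 6 XAV939) to 0.23 CPM (day 5 XAV939), and each group overlapped the next. Rax was highest in the untreated groups of days 6 and 7, at 1.62 and 0.962 CPM, followed by XAV939 of day 7 at 0.568 and of day 6 at 0.28 CPM, again with overlap between neighbours. For Six3 the gap lay between day 5 XAV939 (0.485 CPM) and day 3 untreated (0.0207 CPM), and for Otx1 between day 5 untreated (0.745 CPM) and day 3 untreated (0.367 CPM). Six6 and Lhx2 had no gap between neighbours.

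The patterns of the 7 genes over the 10 group means of log2 CPM were alike for some pairs. Rax and Hesx1 correlated at a Pearson r of 0.91, Six3 and Lhx2 at 0.87 and Six3 and Hesx1 at 0.71, while Otx2 was negative with Six3 (-0.65), Six6 (-0.66) and Lhx2 (-0.67). Hesx1 and Otx2 were at -0.08. These are descriptions over 10 points that share days and arms. Among 11907 genes of at least 5 CPM in some group, the closest to Hesx1 were Shisa2 (r = 0.987) and Gprc5c (0.973), then Robo3 (0.943). Closest to Rax were Fhl2 (0.969), Tm6sf1 (0.965) and Cmtm8 (0.960), and closest to Six3 were Ccnjl (0.990), Draxin (0.988) and Sorbs3 (0.987). Lhx2 was closest to Prom1 (0.980), Tspan18 (0.966) and Ric8b (0.965), and Otx2 to Plcb3 (0.979), Actg1 (0.968) and Arhgdia (0.967). A high r says nothing of the size of a change. Group means ran from 588 to 881 CPM for Actg1 and from 105 to 195 CPM for Prom1, but from 1.96 to 44.1 CPM for Tspan18. For Six6 they were Ier5 (0.957), Ap4b1 (0.951) and Atp2b4 (0.937), at its low counts. Otx1 was closest to Nrxn2 (0.901), En1 (0.899) and Spata13 (0.896).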

How the data were processed

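Poly(A) RNA was sequenced in 40 libraries, 4 in each of 10 groups. Trizol extraction and stranded TruSeq libraries, read as pairs of 81 bp, are stated per the labels' protocols. The submitters' processing notes name bcl2fastq 2.20.0 and the build mm10. Not given in the sources used here are the aligner, counting program, annotation and strand setting. Raw counts per gene, with no normalisation, make up the deposited table, and 508 of its 26906 genes were at 0 in every library. No 2 libraries of a group agreed within sampling noise (60 pairs, chi-square per gene at least 10.2).

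The 7 genes and all lists were chosen with earlier results of these data known. The named genes of a list are those with the smallest adjusted p over the 5 days, at most 4, and Wnt1 was added after its values were seen. The genes of closest pattern are the 3 with the highest Pearson r over group means (log2 CPM, prior count 2). Hhex, Foxa2, Lhx1, Sox2 and Pax6 each stand in 2 lists. Some genes of the forebrain and eye field list, and the list's counts of calls, are not reported here. The edgeR 4.0.16 quasi-likelihood test (limma 3.58.1, R 4.3.3) was fitted with 1 mean per group to all 40 libraries, after filterByExpr (minimum count 10, minimum total 15) and TMM scaling. Calls are Benjamini-Hochberg adjusted p-values below 0.05 over 16878 genes. The script was tested on simulated counts. CPM uses TMM-scaled totals, and RPKM divides it by the exon length of GENCODE M21.

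Alternatives were DESeq2 1.42.0, scaling by relative log expression, no filter, 5 CPM in 4 libraries, a log2 fold change of at least 1, replicate blocks, the 8 libraries of a day, and each library left out. Leaving out libraries that stood apart and the comparison of days 4 and 6 were added after seeing the data. Within a day the replicate numbers pair the 2 arms, since in all 20 pairs same-number libraries deviated together from their group means (r 0.213 to 0.806). Of 32 pairs of neighbouring days, with r from -0.275 to 0.818, 25 were over 0.1. All 4 were over 0.1 for days 4 and 5 in both arms and for days 5 and 6 and days 6 and 7 with XAV939.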

Additional observations from a re-analysis of the deposited data

Results flagged for a closer look

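In each of the 70 sets of 4 libraries (7 genes in 10 groups), the highest and lowest library were compared with the rest of the set. A set was considered when its highest library held at least 10 counts, which 54 sets did. In 6 of these the gap to the nearest library took a larger share of the range than in 95% of normally distributed sets. The gaps were taken on CPM, where high libraries stand apart more readily than on a log scale. How often chance gives such a gap in these levels was not tested. All 6 were high XAV939 libraries, 5 of them library 1 and the other library 4 (Otx1, day 5).

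At day 4 XAV939 library 1 was apart for 3 genes. Its Hesx1 stood at 22.3 CPM, with the rest of its group at 1.31 to 3.14 CPM. It also held 2.35 CPM of Six3 against 0.305 to 0.634 CPM, and 1.98 CPM of Lhx2 against 0.807 to 1 CPM. Without it the day 4 difference between the arms was 0.92 for Hesx1, -0.31 for Six3 and 0.62 for Lhx2 on the log2 scale.

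Otx1 was apart at day 5 in XAV939 library 4, at 4.64 CPM against 0.442 to 0.63 CPM, and at day 7 in XAV939 library 1, at 6.52 CPM against 0.137 to 0.793 CPM. Otx2 was apart at day 6 in XAV939 library 1, at 122 CPM against 25 to 39.2 CPM.

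The effect of XAV939 on Hesx1 differed between day 4 and day 6 by -5.06 on the log2 scale (SE 0.944, edgeR adjusted p = 0.0116), a comparison of days chosen after the values were seen. It was positive at day 4 in 4 of 4 pairs and negative at day 6 in 4 of 4 pairs. Hesx1 was the only one of the 7 genes called, where 0.373% of all genes were. With the replicate block within each day the difference was -4.44 (adjusted p = 0.0128). Without day 4 XAV939 library 1 it was -3.31 (adjusted p = 0.0642, not called), without day 6 XAV939 library 4 it was -4.73 (0.0505, not called), and without each of the other 14 libraries of the 2 days it was called, at -5.53 to -4.69.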

How the results depend on the processing

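Over 119 results, 2176 alternative values were computed: 2127 kept their side of the threshold, 20 passed it newly, 29 no longer passed it and 0 reversed a called direction. Another 104 values had the opposite sign while called under neither setting; they are among the 2127. Scaling by relative log expression moved the median of all genes by -0.0372 to 0.0275.

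Counts of the 7 genes called moved as follows. With DESeq2 the count was 1 for XAV939 at day 4 and 1 for the change of its effect from day 4 to 5 (Hesx1 both times). At day 6 (2 called) it was 1 with no filter, 1 at 5 CPM in 4 libraries, 0 with the 8 libraries of that day alone, 1 with those and a replicate block, and 3 without the 4 XAV939 libraries numbered 1 at days 4 to 7, a setting chosen after seeing the data. At day 5 it was 1 with the 8 libraries and a replicate block. The filter of 5 CPM in 4 libraries tests only Hesx1 and Otx2 of the 7, and there the count was 0 for day 4 against 3, 1 for day 5 against 4 and 1 for day 6 against 5 untreated, and 1 for day 4 against 3, 2 for day 5 against 4 and 2 for day 6 against 5 with XAV939. Without the XAV939 libraries numbered 1 it was 3 for day 6 against 5 and 1 for day 7 against 6 untreated, through Otx2, and 2 for day 6 against 5 with XAV939. The cause was not tested, apart from the fewer genes or libraries that these settings use.

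With each library left out in turn the count ran from 0 to 3 for XAV939 at day 6, from 1 to 2 for day 5 against 4 untreated, from 2 to 3 for day 6 against 5 untreated, from 0 to 1 for day 7 against 6 in each arm and from 1 to 5 for day 6 against 5 with XAV939. It stayed at 0 for XAV939 at days 3, 4, 5 and 7 and for the 4 changes of its effect, at 2 for day 4 against 3 untreated, and at 3 for days 4 against 3 and 5 against 4 with XAV939.

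With the replicate number as a block over all days, day 6 against 5 with XAV939 held 5 called genes in place of 4, with Rax added, and relative log expression and leaving out untreated library 1 of day 4 with library 3 of day 6 gave 5 too. No filter gave 3 there (Otx2 lost, adjusted p = 0.0626), and DESeq2 gave 4 with Rax (0.026) in place of Six6 (0.051). The block, over all days or within each day, changed no other call of the 7 genes, and the blocked fits of 8 libraries are given above. Over all genes the block within each day called 1727 in place of 733 at day 6 and 1240 in place of 395 at day 5.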

Other observations

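At day 4, XAV939 libraries 1 and 4 held the highest levels of some genes of the boundary between midbrain and hindbrain, but not of all. Pax2 stood at 20.1, 0.884, 1.1 and 11.1 CPM in libraries 1 to 4, Wnt1 at 9.14, 0.305, 0.0576 and 7 CPM and En1 at 8.9, 0.61, 0.634 and 9.95 CPM. Pax5 (9.44, 2.41, 2.05 and 13.1 CPM) and Pax8 (1.8, 0.915, 0.807 and 1.95 CPM) were also highest there. En2 (0.872, 1.04, 0.807 and 1.7 CPM) and Gbx2 (8.87, 14.6, 4.32 and 28.6 CPM) were lower in library 1 than in library 2. Fgf8 was highest in library 2 (3.61, 5.43, 2.71 and 3.49 CPM). The other forebrain and eye field transcription factors summed to 65.8 and 49.1 CPM in XAV939 libraries 1 and 4 and to 29.4 and 24 CPM in libraries 2 and 3. Most of this was Sp8, at 49.2, 20.3, 16.1 and 37.8 CPM in libraries 1 to 4. The untreated libraries of day 4 were alike, with sums of 69.4, 33.6, 30 and 45.1 CPM. Hesx1, Six3 and Lhx2 were high in XAV939 library 1 alone. So was Lhx5, a LIM homeobox gene of the early forebrain, at 3.82 CPM against 0.213 to 0.628 CPM in the other XAV939 libraries of that day. Primitive streak markers in XAV939 libraries 1 and 4 summed to 50.4 and 73.4 CPM, and to 93.4 and 54.9 CPM in XAV939 libraries 2 and 3. These genes were picked after their values were seen, and no comparison of these libraries was tested.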
